A study of Mus musculus with 9 samples.

Results

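The genes described are those of the aminoacyl-tRNA synthetases of the cytosol, of amino acid and one-carbon synthesis and of amino acid transport. They were chosen by gene symbol, 39 of the 54432 genes in the count table: 19 synthetase genes, 12 enzyme genes and 8 transporter genes. A synthetase joins an amino acid to its tRNA, the step that supplies the ribosome. The enzymes make non-essential amino acids such as asparagine, serine, proline and cysteine, or carry the one-carbon units that serine gives up. The transporters move amino acids across the plasma membrane, several of them by exchanging one amino acid for another. Many genes of these classes are known targets of the transcription factor ATF4, which is translated when the initiation factor eIF2 is phosphorylated.

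RNAseq was performed on RAW 264.7 cells, a mouse macrophage-like line, in 3 groups of 3 libraries: untreated control cells, cells given 1 mM very low-density lipoprotein (VLDL)-sized emulsion particles for 6 h and cells given 1 mM chylomicron (CHYL)-sized emulsion particles for 6 h. The particles are triglyceride-rich droplets. By the study's methods, material treated alike was combined within an experiment, which makes a library 1 pool from a single cell line. The comparisons ask how each particle changed expression against control and whether the 2 particles differed, and both comparisons against control share the same control libraries. Depth was 22629998, 22617191 and 22856792 estimated counts in the control libraries, 22393893, 22633676 and 22815932 in the VLDL-sized libraries and 22703800, 22482786 and 22614340 in the CHYL-sized libraries, given as everywhere below in the order of replicates 1, 2 and 3. Levels are given as TMM-normalised cpm, in which a gene's estimated counts are scaled by its library's total and TMM factor. A gene was called where limma-voom gave an adjusted p under 0.05 (Benjamini-Hochberg over all genes tested, written as limma adjusted p), and calls rest on the spread between these libraries. Where a gene has a pair of log2 fold changes, the VLDL-sized value comes before the CHYL-sized value, both against control. Because cpm is a share of all RNA counted, each fold change is relative to the other genes. A change in total RNA per cell or in cell number is not seen.

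The macrophage label was checked by markers. All 10 macrophage markers passed the count filter, and their summed level was 6495, 6561 and 6531 cpm in control, 6029.8, 5985 and 5831 cpm with VLDL-sized and 6005, 6193 and 5977 cpm with CHYL-sized particles, led by *Lyz2*. *Csf1r*, the receptor for the growth factor of macrophages, measured 1369, 1393 and 1290.0 cpm in control, 1288, 1324 and 1222 with VLDL-sized and 1309, 1268 and 1244 with CHYL-sized particles. The mannose receptor gene *Mrc1* was low at 1.64, 2.44 and 1.16 cpm in control. With VLDL-sized particles 1 marker was higher and 5 were lower, and with CHYL-sized particles 0 were higher and 2 lower. Of all genes tested, 17.8% were higher and 17.9% lower with VLDL-sized particles, and 12.7% and 13.0% with CHYL-sized particles. With the replicate number as a block in the fit, 1 marker was higher and 5 lower with VLDL-sized particles, and 1 was higher and 3 lower with CHYL-sized particles. The shares of all genes tested were then 24.1% and 23.8%, and 19.5% and 19.6%. Among the markers the VLDL-sized counts became 0 higher and 3 lower without control replicates 1 or 2 or VLDL-sized replicates 1 or 2, 0 higher and 4 lower without control replicate 3 and 1 higher and 3 lower without VLDL-sized replicate 3. *Fcgr1*, an antibody receptor, measured 76.2, 74.8 and 59.3 cpm in control, 38.7, 41.4 and 37.6 with VLDL-sized and 44.4, 44.5 and 41.6 with CHYL-sized particles, with log2 fold changes of -0.83 (SE 0.094, limma adjusted p = 8.03e-05) and -0.68 (SE 0.093, adjusted p = 0.000439). *Cd14*, a co-receptor for lipopolysaccharide, measured 815, 797 and 852 cpm in control, 558, 552 and 586 with VLDL-sized and 555, 606 and 625 with CHYL-sized particles, with log2 fold changes of -0.54 (SE 0.055, limma adjusted p = 3.69e-05) and -0.47 (SE 0.055, adjusted p = 0.000162). The 12 markers of T cells, B cells, fibroblasts, endothelium, epithelium and neutrophils summed to 1.55 to 2.400 cpm, with *Cdh5* the most abundant, and 3 of them, *Epcam* and *Krt18* included, were at 0 in all 9 libraries.

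Replicate 3 stood apart from replicates 1 and 2 in every group. On the principal component that held 15% of the variance, replicate 3 scored -16.8 in control, -14.2 with VLDL-sized and -13.3 with CHYL-sized particles, whereas the other libraries scored 4.6 to 9.7. The genes described here moved with that difference: of the 38 tested, 33 had their highest control level in replicate 3, 32 their highest VLDL-sized level and 33 their highest CHYL-sized level. Over all genes tested replicate 3 was highest for 41.1%, 39.1% and 38.2%. In all 3 groups at once, replicate 3 was highest for 30 of the 38 genes and for 18.8% of all genes. Libraries with the same replicate number deviated together between control and each particle, most strongly those of replicate 3 (correlations of 0.411 and 0.456). Replicates 1 and 2 of CHYL-sized and control libraries correlated more across numbers (0.192 and 0.225) than within them (0.183 and 0.13). There the block sets apart mainly replicate 3, and the labels do not tie the numbers to experiments. Results whose call changed are also given with the replicate number as a block in the fit. Counts are also given without the libraries of replicate 3. Where leaving out 1 library moved a list's count by over 1.5 times, the count without it follows.

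After VLDL-sized particles 23 of the 38 genes were called higher and 0 lower, where 17.8% of all 12637 genes tested were called higher and 17.9% lower. Their median log2 fold change was 0.31, and that of all genes was -0.0003. After CHYL-sized particles 12 were called higher and 0 lower, where 12.7% of all genes were called higher and 13.0% lower, and their median was 0.20 against 0.0013 for all genes. At an unadjusted limma p under 0.05, 24 were higher and none lower with VLDL-sized particles, against 22.4% and 22.3% of all genes tested, while 18 were higher and 1 (*Vars*) lower with CHYL-sized particles, against 18.3% and 18.7%. After adjustment, edgeR, DESeq2 and limma-trend likewise called none lower. Every VLDL-sized library lay above every control library for 23 of the genes against 23.7% of all genes tested, and every CHYL-sized library for 14 against 20.8%. With the replicate block, 29 genes were higher and 1 (*Vars*) lower with VLDL-sized particles, against 24.1% and 23.8% of all genes. For CHYL-sized particles the block gave 24 higher and 1 (*Vars*) lower, against 19.5% and 19.6%.

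Fits without the libraries of replicate 3 rest on 2 libraries a group, and their p-values measure only the spread between those 2. The chi-square per degree of freedom, which grows as the counts of 2 libraries differ, was 3.39 to 5.03 between replicates 1 and 2. For pairs with replicate 3 it was 11.96 to 15.09. Without the libraries of replicate 3, 26 genes were higher and 1 lower with VLDL-sized particles, where 22.0% of all 12386 genes tested were called higher and 21.4% lower. With CHYL-sized particles 21 were then higher and 1 lower, against 17.4% and 16.4% of all genes tested, the lower gene again being *Vars*. Leaving out control replicate 1, 2 or 3 in turn gave 15, 16 and 26 genes higher with VLDL-sized particles, against 13.7%, 14.7% and 17.0% of all genes tested, at medians of 0.28, 0.28 and 0.36. Without VLDL-sized replicate 1, 2 or 3 the count was 22, 21 and 16, against 15.3%, 14.9% and 16.6% of all genes tested, at medians of 0.37, 0.32 and 0.25. Leaving out control replicate 1, 2 or 3 in turn gave 6, 6 and 18 genes higher with CHYL-sized particles, against 8.95%, 9.34% and 12.3% of all genes tested, at medians of 0.15, 0.16 and 0.30. Without CHYL-sized replicate 1, 2 or 3 the count was 12, 12 and 8, against 9.90%, 10.3% and 10.4% of all genes tested, at medians of 0.21, 0.26 and 0.11. Scaling by library size alone, without TMM, shifted the median of all genes to -0.0935 with VLDL-sized and -0.0788 with CHYL-sized particles and the share of called genes that were higher from 49.9% to 31.3% and from 49.6% to 29.8%. Under that scaling 19 of the genes described were higher and 2 (*Vars* and *Qars*) lower with VLDL-sized particles, against 11.9% and 26.2% of all genes tested, and 11 higher and 1 (*Vars*) lower with CHYL-sized particles, against 8.45% and 19.9%.

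**Figure D1:**
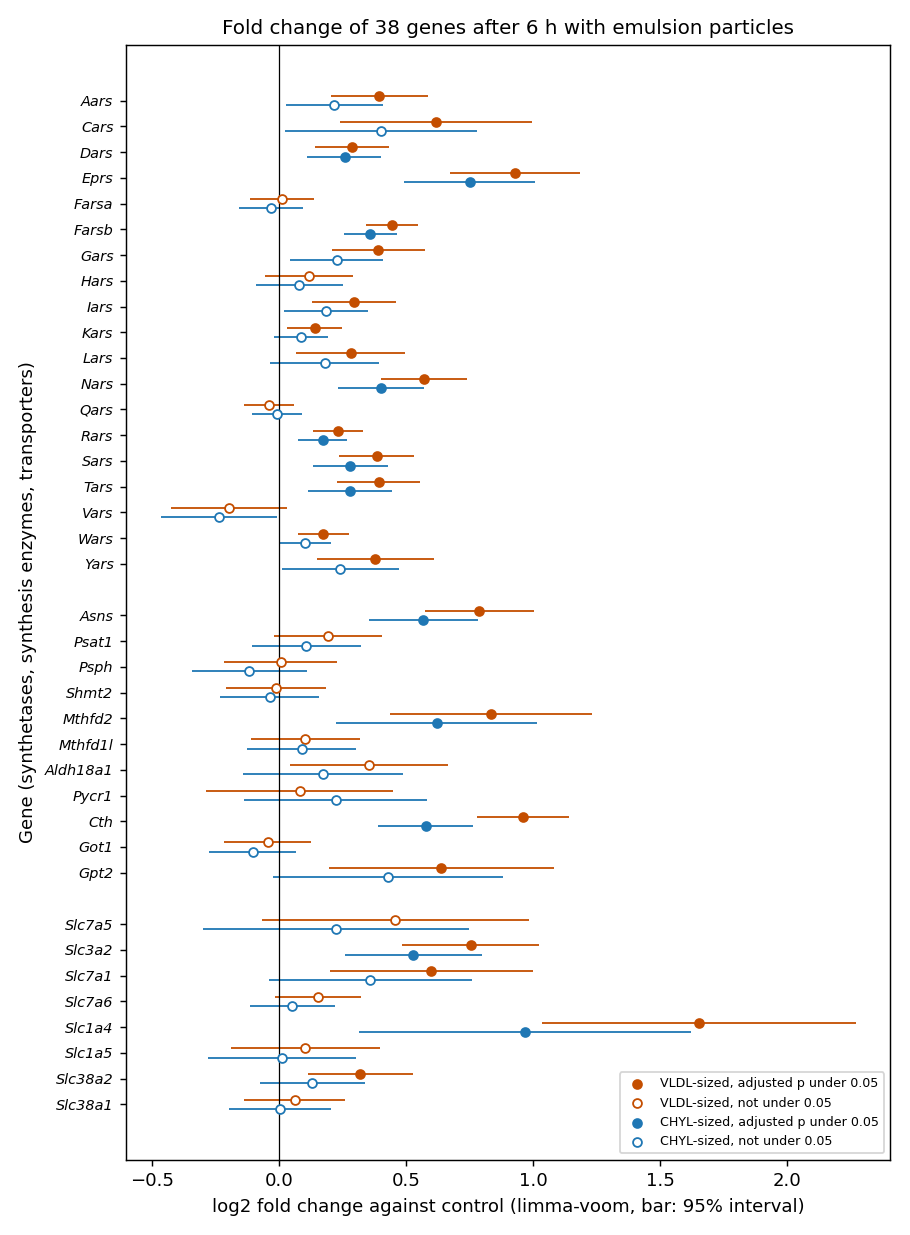
The log2 fold change against control (horizontal axis, no unit) of the 38 genes tested (vertical axis, by role) with VLDL-sized and CHYL-sized particles, as points with 95% intervals from limma-voom with 3 libraries a group. Filled points have an adjusted p under 0.05: 23 genes with VLDL-sized and 12 with CHYL-sized particles, all above 0.

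Of the 19 synthetases tested, 15 were higher and 0 lower with VLDL-sized particles (limma adjusted p under 0.05), with a median log2 fold change of 0.29 and a range from -0.20 to 0.93. CHYL-sized particles left 7 of the 19 synthetases higher and 0 lower, with a median of 0.22 and a range from -0.24 to 0.75. With the replicate number as a block, 16 synthetases were higher and 1 lower with VLDL-sized particles, and 13 higher and 1 lower with CHYL-sized particles, and with replicates 1 and 2 only these counts were 15 and 1, and 12 and 1. Of all genes tested, 17.8% were higher with VLDL-sized and 12.7% with CHYL-sized particles, and with the block 24.1% and 19.5%. With VLDL-sized particles, 10, 11 and 15 synthetases were higher without control replicate 1, 2 or 3 in turn (medians 0.28, 0.28 and 0.35) and 14, 14 and 11 without VLDL-sized replicate 1, 2 or 3 (medians 0.37, 0.32 and 0.24). With CHYL-sized particles, 3, 3 and 12 synthetases were higher without control replicate 1, 2 or 3 in turn (medians 0.17, 0.18 and 0.30) and 7, 7 and 5 without CHYL-sized replicate 1, 2 or 3 (medians 0.25, 0.26 and 0.15). Summed over the 19 genes, the level was 3638, 3658 and 4151 cpm in the control libraries, 4826, 4786 and 5324 cpm with VLDL-sized and 4406, 4381 and 4980.4 cpm with CHYL-sized particles. All libraries of both particles lay above the control libraries in this sum. Per kilobase of the longest coding transcript, the control level was highest for *Gars*, at 171 ± 16.8 cpm per kb, and lowest for *Cars*, at 24.7 ± 4.804 cpm per kb (SD, n = 3).

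Several synthetases of the cytosol are held together in the multisynthetase complex. Of its 7 genes among those described, 6 were higher with VLDL-sized and 3 with CHYL-sized particles. With the replicate block these were 6 and 5. The shares of all genes tested that were higher were 17.8% and 12.7%, and with the block 24.1% and 19.5%. In the complex the CHYL-sized counts became 1 higher without control replicates 1 or 2, against 8.95% and 9.34% of all genes tested. *Eprs* (ENSMUSG00000026615, chromosome 1 from 185363044 to 185428360 in GRCm38), whose fused protein charges the tRNAs of glutamate and proline, measured 329.7, 347 and 404 cpm in control, 624, 647 and 791 with VLDL-sized and 589, 535 and 698 with CHYL-sized particles. In *Eprs* every treated library lay above every control library, replicate 3 highest in each group. *Eprs* had log2 fold changes of 0.93 (SE 0.116, limma adjusted p = 0.000146) and 0.75 (SE 0.116, adjusted p = 0.000951). *Dars*, the aspartate enzyme, measured 166, 159 and 180.3 cpm in control, 196, 197 and 224 with VLDL-sized and 202, 194 and 207 with CHYL-sized particles. In *Dars* every treated library lay above every control library, replicate 3 highest in each group. *Dars* had log2 fold changes of 0.29 (SE 0.066, limma adjusted p = 0.00605) and 0.26 (SE 0.066, adjusted p = 0.0152). *Dars* lost its CHYL-sized call without control replicates 1 or 2, at log2 fold changes of 0.25 and 0.22 and limma adjusted p of 0.0556 and 0.0659. *Iars*, the isoleucine enzyme, measured 186, 192 and 211 cpm in control, 231, 233 and 258 with VLDL-sized and 221, 205 and 244 with CHYL-sized particles. In *Iars* every VLDL-sized library lay above every control library and the CHYL-sized libraries overlapped with control, replicate 3 highest in each group. *Iars* had log2 fold changes of 0.29 (SE 0.075, limma adjusted p = 0.0109) and 0.18 (SE 0.075, adjusted p = 0.0989). *Iars* passed with CHYL-sized particles with the replicate number as a block, with replicates 1 and 2 only and without control replicate 3, at log2 fold changes of 0.18, 0.17 and 0.24 and limma adjusted p of 0.00264, 0.0126 and 0.047. *Kars*, the lysine enzyme, which also serves mitochondria, measured 145, 148 and 145 cpm in control, 159.9, 155 and 168 with VLDL-sized and 151, 153 and 162 with CHYL-sized particles. In *Kars* every treated library lay above every control library, replicate 3 highest in the VLDL-sized and CHYL-sized groups. *Kars* had log2 fold changes of 0.14 (SE 0.049, limma adjusted p = 0.0452) and 0.086 (SE 0.049, adjusted p = 0.227). *Kars* lost its VLDL-sized call with library size as the only scaling, with upper-quartile scaling, with no count filter, in a fit of the compared groups alone, with replicates 1 and 2 only and without control replicates 1, 2 or 3 or VLDL-sized replicates 1 or 3, at log2 fold changes of 0.047, 0.13, 0.14, 0.14, 0.10, 0.13, 0.15, 0.13, 0.14 and 0.11 and limma adjusted p of 0.446, 0.0527, 0.0746, 0.0683, 0.0891, 0.123, 0.0802, 0.0908, 0.0849 and 0.135.

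*Lars*, the leucine enzyme, measured 131, 133 and 150.3 cpm in control, 148, 169 and 189 with VLDL-sized and 152, 144 and 174 with CHYL-sized particles. In *Lars* the libraries of both particles overlapped with control, replicate 3 highest in each group. *Lars* had log2 fold changes of 0.28 (SE 0.097, limma adjusted p = 0.043) and 0.18 (SE 0.097, adjusted p = 0.205). *Lars* lost its VLDL-sized call with library size as the only scaling, with no count filter and without control replicates 1 or 2 or VLDL-sized replicates 2 or 3, at log2 fold changes of 0.19, 0.28, 0.24, 0.26, 0.28 and 0.20 and limma adjusted p of 0.119, 0.0522, 0.137, 0.118, 0.102 and 0.137. *Lars* passed with CHYL-sized particles with the replicate number as a block, at a log2 fold change of 0.18 and a limma adjusted p of 0.012. *Rars*, the arginine enzyme, measured 287, 288 and 294 cpm in control, 337, 332 and 351 with VLDL-sized and 317, 328 and 335 with CHYL-sized particles. In *Rars* every treated library lay above every control library, replicate 3 highest in each group. *Rars* had log2 fold changes of 0.23 (SE 0.044, limma adjusted p = 0.00201) and 0.17 (SE 0.044, adjusted p = 0.0149). *Rars* lost its CHYL-sized call with library size as the only scaling and without control replicates 1 or 2 or CHYL-sized replicate 3, at log2 fold changes of 0.092, 0.16, 0.17 and 0.15 and limma adjusted p of 0.0993, 0.0603, 0.0544 and 0.0571. *Qars*, the glutamine enzyme, measured 119, 120.1 and 120.1 cpm in control, 120.0, 116 and 114 with VLDL-sized and 116, 124 and 118 with CHYL-sized particles. In *Qars* the libraries of both particles overlapped with control. *Qars* had log2 fold changes of -0.04 (SE 0.045, limma adjusted p = 0.531) and -0.007 (SE 0.045, adjusted p = 0.938). *Qars* passed with VLDL-sized particles with library size as the only scaling, at a log2 fold change of -0.13 and a limma adjusted p of 0.0432. The complex also holds the methionine enzyme and 3 scaffold proteins, whose genes were outside the members: 4 of 4 were tested, of which 1 was higher and 0 lower with VLDL-sized particles (median log2 fold change 0.11) and 1 higher and 0 lower with CHYL-sized particles (median 0.09), and with the replicate block 2 higher and 0 lower, and 1 higher and 0 lower. Among them the VLDL-sized counts became 2 higher without VLDL-sized replicate 1. Their CHYL-sized median ran from 0.049 (without CHYL-sized replicate 3) to 0.138 (without control replicate 3). The shares of all genes tested were 17.8% higher and 17.9% lower with VLDL-sized, and 12.7% and 13.0% with CHYL-sized particles. *Mars1*, the methionine enzyme, measured 85.1, 86.3 and 104 cpm in control, 93.01, 97.4 and 105 with VLDL-sized and 90.4, 93.5 and 107 with CHYL-sized particles. In *Mars1* the libraries of both particles overlapped with control, replicate 3 highest in each group. *Mars1* had log2 fold changes of 0.11 (SE 0.090, limma adjusted p = 0.39) and 0.084 (SE 0.090, adjusted p = 0.543). *Mars1* passed with VLDL-sized particles with replicates 1 and 2 only, at a log2 fold change of 0.15 and a limma adjusted p of 0.0258. *Eef1e1*, a scaffold gene and the called one, measured 59.2, 59.3 and 60.1 cpm in control, 69.6, 72.1 and 75.4 with VLDL-sized and 67.9, 73.6 and 76.5 with CHYL-sized particles, with log2 fold changes of 0.28 (SE 0.057, limma adjusted p = 0.00309) and 0.29 (SE 0.057, adjusted p = 0.00417). Every treated library of *Eef1e1* lay above every control library.

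Of the 12 synthetases outside the complex, 9 were higher with VLDL-sized and 4 with CHYL-sized particles. With the replicate block these were 10 and 8, and 1 (*Vars*) was lower with each. Of all genes tested, 17.8% and 12.7% were higher, and with the block 24.1% and 19.5% were higher and 23.8% and 19.6% lower. Outside the complex the CHYL-sized counts became 2 higher without control replicates 1 or 2 and 8 higher without control replicate 3. Without control replicates 1, 2 and 3 in turn, 8.95%, 9.34% and 12.3% of all genes tested were higher. *Nars*, the asparagine enzyme, measured 319, 323 and 375 cpm in control, 497, 487 and 522 with VLDL-sized and 419, 431 and 491 with CHYL-sized particles. In *Nars* every treated library lay above every control library, replicate 3 highest in each group. *Nars* had log2 fold changes of 0.57 (SE 0.077, limma adjusted p = 0.000233) and 0.40 (SE 0.077, adjusted p = 0.00324). *Farsb*, the beta subunit of the phenylalanine enzyme, measured 127, 118 and 117 cpm in control, 168, 164 and 160.1 with VLDL-sized and 154, 155 and 156 with CHYL-sized particles. In *Farsb* every treated library lay above every control library, replicate 3 highest in the CHYL-sized group. *Farsb* had log2 fold changes of 0.44 (SE 0.047, limma adjusted p = 4.61e-05) and 0.36 (SE 0.047, adjusted p = 0.000313). *Farsb* shares 9.47% of its exon bases with *Sgpp2* on the opposite strand, so reads of the 2 genes can be mixed there. *Farsa*, the alpha subunit of the same enzyme, measured 77.9, 73.1 and 73.4 cpm in control, 72.02, 76.4 and 77.9 with VLDL-sized and 74.5, 76.1 and 68.99 with CHYL-sized particles. In *Farsa* the libraries of both particles overlapped with control, replicate 3 highest in the VLDL-sized group. *Farsa* had log2 fold changes of 0.012 (SE 0.056, limma adjusted p = 0.896) and -0.032 (SE 0.056, adjusted p = 0.729). *Cars*, the cysteine enzyme, measured 68.5, 72.9 and 97.2 cpm in control, 111, 109 and 145 with VLDL-sized and 93.5, 90.6 and 132 with CHYL-sized particles. In *Cars* every VLDL-sized library lay above every control library and the CHYL-sized libraries overlapped with control, replicate 3 highest in each group. *Cars* had log2 fold changes of 0.62 (SE 0.17, limma adjusted p = 0.0161) and 0.40 (SE 0.171, adjusted p = 0.115). *Cars* lost its VLDL-sized call without control replicates 1 or 2 or VLDL-sized replicate 3, at log2 fold changes of 0.52, 0.56 and 0.49 and limma adjusted p of 0.068, 0.0571 and 0.0531. *Cars* passed with CHYL-sized particles with the replicate number as a block, with replicates 1 and 2 only and without control replicate 3, at log2 fold changes of 0.40, 0.38 and 0.55 and limma adjusted p of 2.68e-05, 7.45e-05 and 0.038.

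*Aars*, the alanine enzyme, measured 258, 264 and 310.3 cpm in control, 359, 344 and 389 with VLDL-sized and 307, 302 and 359 with CHYL-sized particles. In *Aars* every VLDL-sized library lay above every control library and the CHYL-sized libraries overlapped with control, replicate 3 highest in each group. *Aars* had log2 fold changes of 0.39 (SE 0.086, limma adjusted p = 0.00488) and 0.22 (SE 0.086, adjusted p = 0.0925). *Aars* passed with CHYL-sized particles with the replicate number as a block, with replicates 1 and 2 only and without control replicate 3, at log2 fold changes of 0.22, 0.22 and 0.30 and limma adjusted p of 0.000714, 0.00133 and 0.0215. *Aars* shares 14.3% of its exon bases with *Exosc6* on the same strand, so reads of the 2 genes can be mixed there. *Gars*, the glycine enzyme of cytosol and mitochondria, measured 389.8, 379 and 453 cpm in control, 516, 519 and 564 with VLDL-sized and 449, 451 and 530.4 with CHYL-sized particles. In *Gars* every VLDL-sized library lay above every control library and the CHYL-sized libraries overlapped with control, replicate 3 highest in each group. *Gars* had log2 fold changes of 0.39 (SE 0.083, limma adjusted p = 0.00406) and 0.23 (SE 0.083, adjusted p = 0.0698). *Gars* passed with CHYL-sized particles with the replicate number as a block, with replicates 1 and 2 only and without control replicate 3, at log2 fold changes of 0.23, 0.23 and 0.30 and limma adjusted p of 0.000443, 0.000664 and 0.0168. *Sars*, the serine enzyme, measured 311, 309 and 359.9 cpm in control, 430.3, 408 and 438 with VLDL-sized and 377, 394 and 418 with CHYL-sized particles. In *Sars* every treated library lay above every control library, replicate 3 highest in each group. *Sars* had log2 fold changes of 0.38 (SE 0.067, limma adjusted p = 0.00121) and 0.28 (SE 0.067, adjusted p = 0.0107). *Sars* lost its CHYL-sized call without control replicates 1 or 2, at log2 fold changes of 0.25 and 0.24 and limma adjusted p of 0.0506 and 0.0502. *Tars*, the threonine enzyme, measured 230.2, 235 and 271 cpm in control, 318, 305 and 341 with VLDL-sized and 282, 289 and 320.0 with CHYL-sized particles. In *Tars* every treated library lay above every control library, replicate 3 highest in each group. *Tars* had log2 fold changes of 0.39 (SE 0.074, limma adjusted p = 0.00208) and 0.28 (SE 0.074, adjusted p = 0.0187). *Tars* lost its CHYL-sized call without control replicates 1 or 2 or CHYL-sized replicate 3, at log2 fold changes of 0.23, 0.25 and 0.23 and limma adjusted p of 0.0798, 0.0716 and 0.0658.

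*Wars*, the tryptophan enzyme, measured 93.9, 97.5 and 98.99 cpm in control, 113, 106 and 109 with VLDL-sized and 103, 106 and 104 with CHYL-sized particles. In *Wars* every treated library lay above every control library, replicate 3 highest in the control group. *Wars* had log2 fold changes of 0.17 (SE 0.045, limma adjusted p = 0.0116) and 0.10 (SE 0.045, adjusted p = 0.124). *Wars* lost its VLDL-sized call with library size as the only scaling and without control replicate 1, at log2 fold changes of 0.082 and 0.15 and limma adjusted p of 0.169 and 0.0569. *Yars*, the tyrosine enzyme, measured 92.5, 100.3 and 117 cpm in control, 126, 128 and 148 with VLDL-sized and 112, 115 and 138 with CHYL-sized particles. In *Yars* every VLDL-sized library lay above every control library and the CHYL-sized libraries overlapped with control, replicate 3 highest in each group. *Yars* had log2 fold changes of 0.38 (SE 0.104, limma adjusted p = 0.0158) and 0.24 (SE 0.104, adjusted p = 0.119). *Yars* lost its VLDL-sized call without control replicates 1 or 2 or VLDL-sized replicate 3, at log2 fold changes of 0.30, 0.36 and 0.30 and limma adjusted p of 0.0694, 0.0505 and 0.0531. *Yars* passed with CHYL-sized particles with the replicate number as a block, with replicates 1 and 2 only and without control replicate 3, at log2 fold changes of 0.24, 0.24 and 0.33 and limma adjusted p of 0.00042, 0.00278 and 0.0388. *Hars*, the histidine enzyme, measured 112, 108 and 130.1 cpm in control, 124, 118 and 137 with VLDL-sized and 119, 121 and 128 with CHYL-sized particles. In *Hars* the libraries of both particles overlapped with control, replicate 3 highest in each group. *Hars* had log2 fold changes of 0.12 (SE 0.078, limma adjusted p = 0.27) and 0.08 (SE 0.078, adjusted p = 0.498). *Hars* passed with VLDL-sized particles with the replicate number as a block, with replicates 1 and 2 only and without control replicate 3, at log2 fold changes of 0.12, 0.14 and 0.20 and limma adjusted p of 0.0424, 0.0331 and 0.0461. *Hars* shares 7.97% of its exon bases with *Hars2* on the opposite strand, so reads of the 2 genes can be mixed there. *Vars*, the valine enzyme, measured 195, 190.5 and 244 cpm in control, 174, 174 and 199 with VLDL-sized and 169, 166 and 198 with CHYL-sized particles. In *Vars* the libraries of both particles overlapped with control, replicate 3 highest in each group. *Vars* had log2 fold changes of -0.20 (SE 0.103, limma adjusted p = 0.166) and -0.24 (SE 0.103, adjusted p = 0.123). *Vars* passed with VLDL-sized particles with library size as the only scaling, with the replicate number as a block and with replicates 1 and 2 only, at log2 fold changes of -0.29, -0.20 and -0.15 and limma adjusted p of 0.0297, 0.00144 and 0.0131. *Vars* passed with CHYL-sized particles with library size as the only scaling, with the replicate number as a block and with replicates 1 and 2 only, at log2 fold changes of -0.32, -0.24 and -0.20 and limma adjusted p of 0.0267, 0.000575 and 0.00253.

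The synthetases that serve only mitochondria are encoded by separate genes. The list of mitochondrial genes read here also holds *Qrsl1*, *Gatb* and *Gatc*, which are not synthetases. 20 of 20 were tested, of which 1 was higher and 5 lower with VLDL-sized particles (median log2 fold change -0.02) and 1 higher and 3 lower with CHYL-sized particles (median -0.051), and with the replicate block 2 higher and 6 lower, and 1 higher and 5 lower. The shares of all genes tested were 17.8% higher and 17.9% lower with VLDL-sized, and 12.7% and 13.0% with CHYL-sized particles. Under the block these shares were 24.1% and 23.8%, and 19.5% and 19.6%. For the mitochondrial genes the VLDL-sized counts became 2 higher and 3 lower without VLDL-sized replicate 1 and 1 higher and 3 lower without VLDL-sized replicate 2, and the CHYL-sized counts became 1 higher and 1 lower without CHYL-sized replicates 1 or 3. Their VLDL-sized median ran from -0.050 (without control replicate 1) to 0.001 (without VLDL-sized replicate 2). Their CHYL-sized median was -0.085 without CHYL-sized replicate 3. Across the 20 mitochondrial genes, the level was 469.6, 479 and 489 cpm in the control libraries, 462, 470.4 and 497 cpm with VLDL-sized and 462, 469.7 and 479.8 cpm with CHYL-sized particles. *Fars2*, the phenylalanine enzyme and the called gene that was higher, measured 8.79, 8.93 and 10.2 cpm in control, 15.5, 12.5 and 16.3 with VLDL-sized and 11.96, 14.7 and 17.01 with CHYL-sized particles, with log2 fold changes of 0.66 (SE 0.149, limma adjusted p = 0.00594) and 0.63 (SE 0.15, adjusted p = 0.0108). *Sars2*, the serine enzyme, measured 16.4, 14.9 and 18.99 cpm in control, 12.7, 12.4 and 14.1 with VLDL-sized and 12.8, 14.4 and 14.04 with CHYL-sized particles, with log2 fold changes of -0.36 (SE 0.104, limma adjusted p = 0.0204) and -0.28 (SE 0.102, adjusted p = 0.0679). *Sars2* lost its VLDL-sized call without control replicate 3 or VLDL-sized replicates 1 or 2, at log2 fold changes of -0.27, -0.34 and -0.32 and limma adjusted p of 0.0561, 0.0636 and 0.0761. *Sars2* passed with CHYL-sized particles with library size as the only scaling, with the replicate number as a block and without control replicate 2, at log2 fold changes of -0.36, -0.29 and -0.36 and limma adjusted p of 0.0169, 0.0157 and 0.0352. *Cars2*, the cysteine enzyme, measured 20.7, 20.4 and 20.3 cpm in control, 14.8, 16.2 and 17.2 with VLDL-sized and 16.6, 18.4 and 15.2 with CHYL-sized particles, with log2 fold changes of -0.35 (SE 0.085, limma adjusted p = 0.00872) and -0.29 (SE 0.084, adjusted p = 0.0255). *Cars2* lost its CHYL-sized call with no count filter and without control replicates 1 or 2 or CHYL-sized replicates 1 or 3, at log2 fold changes of -0.30, -0.29, -0.30, -0.30 and -0.23 and limma adjusted p of 0.0622, 0.0751, 0.0643, 0.0667 and 0.0944. *Mars2*, the methionine enzyme, measured 11.8, 10.998 and 11.4 cpm in control, 8.95, 8.22 and 10.2 with VLDL-sized and 10.4, 9.72 and 9.21 with CHYL-sized particles, with log2 fold changes of -0.33 (SE 0.099, limma adjusted p = 0.0256) and -0.22 (SE 0.097, adjusted p = 0.12). *Mars2* lost its VLDL-sized call with no count filter and without control replicate 1 or VLDL-sized replicates 1 or 2, at log2 fold changes of -0.33, -0.30, -0.31 and -0.25 and limma adjusted p of 0.065, 0.0817, 0.0712 and 0.106. *Mars2* passed with CHYL-sized particles with library size as the only scaling, at a log2 fold change of -0.30 and a limma adjusted p of 0.0401. In each of these 4 genes the VLDL-sized libraries lay wholly on one side of control.

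The promoters of the genes described were searched for the letters TGATGNAA on either strand (TTNCATCA on the other). These letters are a form of the C/EBP-ATF element that dimers of ATF4 are known to bind. RefSeq promoters of GRCm38.p6, 250 bases before to 50 after each start, were given for 28 of the 39 genes and not for *Cars*, *Cth*, *Hars*, *Lars*, *Nars*, *Rars*, *Slc1a5*, *Slc38a1*, *Slc7a5*, *Vars* and *Wars*. The letters were found in 9 of the 28 (32.1%), and in 1219 of all 27025 genes with a promoter (4.51%). Many genes of these classes are known ATF4 targets, so a share above that of all genes does not bear on these cells. Binding was not tested. Among the 9 genes with the letters 7 were called higher with VLDL-sized particles (not *Pycr1* and *Got1*), and among the 18 tested without them 10 were. Of all genes tested with a promoter, 22.9% of the 266 with the letters and 18.5% of the 9084 without them were called higher. The matches shown started 4 bases after the start in *Yars*, 23 before it in *Asns*, 30 before it in *Gars*, 10 after it in *Aars*, 4 before it in *Slc1a4*, 103 before it in *Pycr1*, 8 after it in *Iars*, 15 before it in *Tars* and 102 before it in *Got1*. The 30 bases around each of these matches are shown 5′ to 3′ on the strand of the gene, with the match in capitals (letters that the search itself fixed), so that the bases around them can be read. They lie at chr4:129189895-129189924 (plus) for *Yars*, chr6:7693214-7693243 (minus) for *Asns*, chr6:55037960-55037989 (plus) for *Gars*, chr8:111033840-111033869 (plus) for *Aars*, chr11:20332699-20332728 (minus) for *Slc1a4*, chr11:120643833-120643862 (minus) for *Pycr1*, chr13:49682126-49682155 (plus) for *Iars*, chr15:11399655-11399684 (minus) for *Tars* and chr19:43524689-43524718 (minus) for *Got1*.
Yars: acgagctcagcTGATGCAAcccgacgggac
Asns: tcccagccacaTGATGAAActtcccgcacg
Gars: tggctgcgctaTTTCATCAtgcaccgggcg
Aars: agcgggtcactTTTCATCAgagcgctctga
Slc1a4: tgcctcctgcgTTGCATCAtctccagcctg
Pycr1: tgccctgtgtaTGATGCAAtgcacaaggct
Iars: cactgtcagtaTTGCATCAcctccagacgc
Tars: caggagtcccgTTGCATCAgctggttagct
Got1: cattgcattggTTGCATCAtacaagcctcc

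Of the 11 enzymes tested, 4 were higher and 0 lower with VLDL-sized particles (limma adjusted p under 0.05), with a median log2 fold change of 0.19 and a range from -0.045 to 0.96. CHYL-sized particles left 3 of the 11 enzymes higher and 0 lower, with a median of 0.17 and a range from -0.12 to 0.62. With the replicate number as a block, 6 enzymes were higher and 0 lower with VLDL-sized particles, and 6 higher and 0 lower with CHYL-sized particles, and with replicates 1 and 2 only these counts were 6 and 0, and 5 and 0. Of all genes tested, 17.8% were higher with VLDL-sized and 12.7% with CHYL-sized particles, and with the block 24.1% and 19.5%. With VLDL-sized particles, 3, 3 and 6 enzymes were higher without control replicate 1, 2 or 3 in turn (medians 0.15, 0.15 and 0.28) and 4, 4 and 3 without VLDL-sized replicate 1, 2 or 3 (medians 0.24, 0.23 and 0.12). With CHYL-sized particles, 2, 2 and 3 enzymes were higher without control replicate 1, 2 or 3 in turn (medians 0.11, 0.10 and 0.30) and 3, 3 and 2 without CHYL-sized replicate 1, 2 or 3 (medians 0.21, 0.26 and 0.032). Summed over the 12 genes, the level was 1202, 1190.3 and 1469.6 cpm in the control libraries, 1536, 1489 and 1762 cpm with VLDL-sized and 1369, 1371 and 1670.2 cpm with CHYL-sized particles. *Phgdh*, which encodes the enzyme that opens serine synthesis, had no count in any of the 9 libraries and was not tested. Scaled by library total alone, without the TMM factor, this allows at most 0.131 to 0.134 cpm per library (3 counts, counting error only). *Asns* (ENSMUSG00000029752, chromosome 6 from 7675169 to 7693254 in GRCm38), asparagine synthetase, measured 112, 112 and 136 cpm in control, 209, 198 and 212 with VLDL-sized and 162, 167 and 205 with CHYL-sized particles. In *Asns* every treated library lay above every control library, replicate 3 highest in each group. *Asns* had log2 fold changes of 0.79 (SE 0.097, limma adjusted p = 0.00013) and 0.57 (SE 0.097, adjusted p = 0.00169). *Cth* (ENSMUSG00000028179, chromosome 3 from 157894248 to 157925077 in GRCm38), which forms cysteine from cystathionine, measured 26.9, 28.1 and 34.1 cpm in control, 58.4, 59.8 and 54.3 with VLDL-sized and 44.4, 43.5 and 44.3 with CHYL-sized particles. In *Cth* every treated library lay above every control library, replicate 3 highest in the control group. *Cth* had log2 fold changes of 0.96 (SE 0.082, limma adjusted p = 1.21e-05) and 0.58 (SE 0.084, adjusted p = 0.000663). *Mthfd2*, a mitochondrial enzyme of folate one-carbon metabolism, measured 135, 136 and 198 cpm in control, 255, 242 and 332 with VLDL-sized and 216, 206 and 295 with CHYL-sized particles. In *Mthfd2* every treated library lay above every control library, replicate 3 highest in each group. *Mthfd2* had log2 fold changes of 0.83 (SE 0.179, limma adjusted p = 0.00431) and 0.62 (SE 0.179, adjusted p = 0.0273). *Mthfd2* lost its CHYL-sized call without control replicates 1 or 2 or CHYL-sized replicate 3, at log2 fold changes of 0.53, 0.53 and 0.46 and limma adjusted p of 0.103, 0.0969 and 0.0855. *Gpt2*, the mitochondrial alanine transaminase, measured 16.9, 18.1 and 25.7 cpm in control, 27.9, 27.1 and 39.3 with VLDL-sized and 23.8, 23.5 and 34.4 with CHYL-sized particles. In *Gpt2* every VLDL-sized library lay above every control library and the CHYL-sized libraries overlapped with control, replicate 3 highest in each group. *Gpt2* had log2 fold changes of 0.64 (SE 0.20, limma adjusted p = 0.0297) and 0.43 (SE 0.204, adjusted p = 0.154). *Gpt2* lost its VLDL-sized call without control replicates 1 or 2 or VLDL-sized replicate 3, at log2 fold changes of 0.52, 0.57 and 0.47 and limma adjusted p of 0.113, 0.0946 and 0.0909. *Gpt2* passed with CHYL-sized particles with the replicate number as a block and with replicates 1 and 2 only, at log2 fold changes of 0.43 and 0.43 and limma adjusted p of 9.73e-05 and 0.000489.

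*Psat1*, the transaminase that follows *Phgdh* in serine synthesis, measured 316, 316 and 376 cpm in control, 358, 366 and 428 with VLDL-sized and 338, 343 and 405 with CHYL-sized particles. In *Psat1* the libraries of both particles overlapped with control, replicate 3 highest in each group. *Psat1* had log2 fold changes of 0.19 (SE 0.097, limma adjusted p = 0.149) and 0.11 (SE 0.097, adjusted p = 0.46). *Psat1* passed with VLDL-sized particles with the replicate number as a block, with replicates 1 and 2 only and without control replicate 3, at log2 fold changes of 0.19, 0.20 and 0.28 and limma adjusted p of 0.000391, 0.00154 and 0.0444. *Psat1* passed with CHYL-sized particles with the replicate number as a block, at a log2 fold change of 0.11 and a limma adjusted p of 0.0198. With 1 library left out, the CHYL-sized log2 fold change of *Psat1* ran from 0.024 to 0.191. *Psph*, the phosphatase that ends serine synthesis, measured 10.7, 10.1 and 9.62 cpm in control, 11.2, 9.49 and 9.96 with VLDL-sized and 10.3, 8.66 and 9.104 with CHYL-sized particles. In *Psph* the libraries of both particles overlapped with control. *Psph* had log2 fold changes of 0.006 (SE 0.101, limma adjusted p = 0.972) and -0.12 (SE 0.102, adjusted p = 0.449). *Psph* shares 10.4% of its exon bases with *Cct6a* on the opposite strand, so reads of the 2 genes can be mixed there. *Shmt2*, which turns serine into glycine in mitochondria, measured 344, 326 and 401 cpm in control, 350.0, 327 and 384 with VLDL-sized and 328, 336 and 379 with CHYL-sized particles. In *Shmt2* the libraries of both particles overlapped with control, replicate 3 highest in each group. *Shmt2* had log2 fold changes of -0.011 (SE 0.088, limma adjusted p = 0.937) and -0.036 (SE 0.088, adjusted p = 0.808). *Aldh18a1*, which opens proline synthesis from glutamate, measured 55.9, 55.6 and 73.3 cpm in control, 76.1, 70.3 and 88.999 with VLDL-sized and 63.9, 60.98 and 83.9 with CHYL-sized particles. In *Aldh18a1* the libraries of both particles overlapped with control, replicate 3 highest in each group. *Aldh18a1* had log2 fold changes of 0.35 (SE 0.141, limma adjusted p = 0.0734) and 0.17 (SE 0.142, adjusted p = 0.414). *Aldh18a1* passed with VLDL-sized particles with DESeq2, with the replicate number as a block, with replicates 1 and 2 only and without control replicate 3, at log2 fold changes of 0.35, 0.35, 0.39 and 0.48 and adjusted p, from limma unless another tool is named, of 0.0463, 6.09e-05, 7.71e-05 and 0.0198. *Aldh18a1* passed with CHYL-sized particles with the replicate number as a block and with replicates 1 and 2 only, at log2 fold changes of 0.17 and 0.16 and limma adjusted p of 0.0112 and 0.0442. With 1 library left out, the CHYL-sized log2 fold change of *Aldh18a1* ran from 0.032 to 0.303. *Pycr1*, which ends proline synthesis, measured 5.13, 4.51 and 6.34 cpm in control, 5.89, 5.57 and 5.28 with VLDL-sized and 6.25, 5.08 and 7.34 with CHYL-sized particles. In *Pycr1* the libraries of both particles overlapped with control, replicate 3 highest in the control and CHYL-sized groups. *Pycr1* had log2 fold changes of 0.081 (SE 0.166, limma adjusted p = 0.745) and 0.22 (SE 0.162, adjusted p = 0.355).

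The last 2 enzymes passed with neither particle. *Got1*, the cytosolic aspartate transaminase, measured 119, 119.8 and 134 cpm in control, 119.9, 114 and 128 with VLDL-sized and 108, 111 and 129 with CHYL-sized particles. In *Got1* the libraries of both particles overlapped with control, replicate 3 highest in each group. *Got1* had log2 fold changes of -0.045 (SE 0.077, limma adjusted p = 0.689) and -0.10 (SE 0.077, adjusted p = 0.368). *Mthfd1l*, which releases formate from mitochondria, measured 61.3, 64.01 and 75.02 cpm in control, 65.4, 70.3 and 79.4 with VLDL-sized and 66.9, 67.5 and 78.6 with CHYL-sized particles. In *Mthfd1l* the libraries of both particles overlapped with control, replicate 3 highest in each group. *Mthfd1l* had log2 fold changes of 0.10 (SE 0.097, limma adjusted p = 0.447) and 0.091 (SE 0.097, adjusted p = 0.545). Per kilobase, the control level of the enzymes ran from 1.83 ± 0.320 cpm per kb for *Pycr1* to 156 ± 17.1 cpm per kb for *Shmt2* (SD, n = 3), *Phgdh* being at 0.

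Of the other serine, glycine and one-carbon genes, 12 of 15 were tested, of which 2 were higher and 6 lower with VLDL-sized particles (median log2 fold change -0.21) and 1 higher and 3 lower with CHYL-sized particles (median -0.18), and with the replicate block 2 higher and 8 lower, and 2 higher and 7 lower. For all genes tested the shares were 17.8% higher and 17.9% lower with VLDL-sized, and 12.7% and 13.0% with CHYL-sized particles. The block made these shares 24.1% and 23.8%, and 19.5% and 19.6%. Among these enzymes the VLDL-sized counts became 1 higher and 6 lower without control replicate 1, 1 higher and 5 lower without control replicate 2, 1 higher and 4 lower without control replicate 3 or VLDL-sized replicate 2, 2 higher and 3 lower without VLDL-sized replicate 1 and 1 higher and 7 lower without VLDL-sized replicate 3, and the CHYL-sized counts became 0 higher and 2 lower without control replicate 2 or CHYL-sized replicate 1. *Aldh1l1*, a folate dehydrogenase of the cytosol, measured 30.8, 29.7 and 25.9 cpm in control, 17.4, 16.04 and 18.3 with VLDL-sized and 19.2, 18.6 and 18.1 with CHYL-sized particles, with log2 fold changes of -0.74 (SE 0.085, limma adjusted p = 8.36e-05) and -0.62 (SE 0.083, adjusted p = 0.00036). *Mat2a*, which makes S-adenosylmethionine, measured 248, 246 and 333 cpm in control, 161, 171 and 227 with VLDL-sized and 202, 196 and 248 with CHYL-sized particles, with log2 fold changes of -0.57 (SE 0.15, limma adjusted p = 0.0134) and -0.35 (SE 0.15, adjusted p = 0.117). *Mat2a* lost its VLDL-sized call without VLDL-sized replicates 1 or 2, at log2 fold changes of -0.47 and -0.51 and limma adjusted p of 0.0567 and 0.0513. *Mat2a* passed with CHYL-sized particles with library size as the only scaling, with the replicate number as a block and with replicates 1 and 2 only, at log2 fold changes of -0.43, -0.35 and -0.31 and limma adjusted p of 0.0416, 4.56e-05 and 0.000136. Both were lower in every treated library than in every control library, except that *Mat2a* overlapped in CHYL-sized libraries. *Mthfd2l*, a relative of *Mthfd2*, measured 5.17, 5.06 and 5.06 cpm in control, 5.84, 6.87 and 7.06 with VLDL-sized and 7.62, 6.93 and 6.43 with CHYL-sized particles, with log2 fold changes of 0.37 (SE 0.118, limma adjusted p = 0.0338) and 0.45 (SE 0.117, adjusted p = 0.0161). *Mthfd2l* lost its VLDL-sized call with DESeq2, with library size as the only scaling, with no count filter, in a fit of the compared groups alone, with replicates 1 and 2 only and without control replicates 1, 2 or 3 or VLDL-sized replicates 2 or 3, at log2 fold changes of 0.37, 0.27, 0.37, 0.36, 0.31, 0.38, 0.36, 0.36, 0.33 and 0.32 and adjusted p, from limma unless another tool is named, of 0.0557, 0.102, 0.087, 0.0507, 0.0987, 0.0786, 0.0865, 0.0696, 0.1 and 0.0981. *Mthfd2l* lost its CHYL-sized call without control replicate 2 or CHYL-sized replicate 1, at log2 fold changes of 0.45 and 0.38 and limma adjusted p of 0.0532 and 0.0654.

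Of the other proline, glutamate, aspartate, arginine and branched-chain genes, 16 of 18 were tested, of which 1 was higher and 4 lower with VLDL-sized particles (median log2 fold change -0.08) and 1 higher and 2 lower with CHYL-sized particles (median -0.071), and with the replicate block 3 higher and 5 lower, and 3 higher and 4 lower. Beside these stand 17.8% higher and 17.9% lower of all genes tested with VLDL-sized, and 12.7% and 13.0% with CHYL-sized particles. Blocked, those shares were 24.1% and 23.8%, and 19.5% and 19.6%. In this list the VLDL-sized counts became 1 higher and 2 lower without control replicate 1 and 3 higher and 3 lower without control replicate 3, and the CHYL-sized counts became 2 higher and 3 lower without control replicate 3. Its VLDL-sized median ran from -0.157 (without VLDL-sized replicate 3) to -0.031 (without VLDL-sized replicate 2). Its CHYL-sized median ran from -0.097 (without CHYL-sized replicate 3) to -0.010 (without control replicate 3). *Glul*, which makes glutamine from glutamate, measured 71.4, 70.9 and 67.6 cpm in control, 51.4, 54.1 and 50.7 with VLDL-sized and 55.4, 59.9 and 56.4 with CHYL-sized particles, with log2 fold changes of -0.42 (SE 0.053, limma adjusted p = 0.000148) and -0.29 (SE 0.052, adjusted p = 0.00242). Every treated library of *Glul* lay below every control library. *Aldh4a1*, an enzyme of proline breakdown, measured 21.2, 20.7 and 23.1 cpm in control, 14.7, 16.9 and 16.5 with VLDL-sized and 15.6, 17.3 and 17.5 with CHYL-sized particles, with log2 fold changes of -0.43 (SE 0.083, limma adjusted p = 0.0023) and -0.37 (SE 0.082, adjusted p = 0.00819). *Oat*, ornithine aminotransferase, measured 133, 131 and 123 cpm in control, 108, 114 and 116 with VLDL-sized and 114, 118 and 119.7 with CHYL-sized particles, with log2 fold changes of -0.19 (SE 0.050, limma adjusted p = 0.0118) and -0.13 (SE 0.050, adjusted p = 0.074). *Oat* lost its VLDL-sized call without control replicate 1, at a log2 fold change of -0.17 and a limma adjusted p of 0.0534. *Oat* passed with CHYL-sized particles with library size as the only scaling, with the replicate number as a block, with replicates 1 and 2 only and without control replicate 3, at log2 fold changes of -0.21, -0.13, -0.18 and -0.17 and limma adjusted p of 0.0113, 0.0351, 0.00922 and 0.0363.

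Of the 38 genes, the transporter gene *Slc1a4* had the largest log2 fold change with VLDL-sized particles. Of the 8 transporters tested, 4 were higher and 0 lower with VLDL-sized particles (limma adjusted p under 0.05), with a median log2 fold change of 0.39 and a range from 0.061 to 1.65. CHYL-sized particles left 2 of the 8 transporters higher and 0 lower, with a median of 0.18 and a range from 0.004 to 0.97. With the replicate number as a block, 7 transporters were higher and 0 lower with VLDL-sized particles, and 5 higher and 0 lower with CHYL-sized particles, and with replicates 1 and 2 only these counts were 5 and 0, and 4 and 0. Of all genes tested, 17.8% were higher with VLDL-sized and 12.7% with CHYL-sized particles, and with the block 24.1% and 19.5%. With VLDL-sized particles, 2, 2 and 5 transporters were higher without control replicate 1, 2 or 3 in turn (medians 0.32, 0.31 and 0.54) and 4, 3 and 2 without VLDL-sized replicate 1, 2 or 3 (medians 0.45, 0.44 and 0.28). With CHYL-sized particles, 1, 1 and 3 transporters were higher without control replicate 1, 2 or 3 in turn (medians 0.10, 0.10 and 0.33) and 2, 2 and 1 without CHYL-sized replicate 1, 2 or 3 (medians 0.25, 0.27 and 0.008). Summed over the 8 genes, the level was 1591, 1589 and 1918 cpm in the control libraries, 2045, 2055 and 2511 cpm with VLDL-sized and 1787, 1761 and 2332 cpm with CHYL-sized particles. *Slc1a4* (ENSMUSG00000020142, chromosome 11 from 20302180 to 20332713 in GRCm38), a carrier of alanine, serine, cysteine and threonine, measured 6.01, 6.15 and 10.9 cpm in control, 21.5, 19.8 and 29.4 with VLDL-sized and 12.1, 11.9 and 21.1 with CHYL-sized particles. In *Slc1a4* every treated library lay above every control library, replicate 3 highest in each group. *Slc1a4* had log2 fold changes of 1.65 (SE 0.279, limma adjusted p = 0.00102) and 0.97 (SE 0.295, adjusted p = 0.0345). *Slc1a4* lost its CHYL-sized call without control replicates 1 or 2 or CHYL-sized replicate 3, at log2 fold changes of 0.82, 0.84 and 0.70 and limma adjusted p of 0.126, 0.118 and 0.0872. *Slc3a2*, the heavy chain that takes several light-chain transporters to the cell surface, measured 277, 264 and 279 cpm in control, 436, 414 and 541 with VLDL-sized and 347, 369 and 479 with CHYL-sized particles. In *Slc3a2* every treated library lay above every control library, replicate 3 highest in each group. *Slc3a2* had log2 fold changes of 0.75 (SE 0.122, limma adjusted p = 0.000765) and 0.53 (SE 0.122, adjusted p = 0.00901). *Slc7a5*, a light chain that carries large neutral amino acids, measured 139, 136 and 233 cpm in control, 207, 196 and 282 with VLDL-sized and 160.4, 167 and 263 with CHYL-sized particles. In *Slc7a5* the libraries of both particles overlapped with control, replicate 3 highest in each group. *Slc7a5* had log2 fold changes of 0.46 (SE 0.236, limma adjusted p = 0.161) and 0.22 (SE 0.237, adjusted p = 0.54). *Slc7a5* passed with VLDL-sized particles with the replicate number as a block, with replicates 1 and 2 only and without control replicate 3, at log2 fold changes of 0.45, 0.55 and 0.71 and limma adjusted p of 3.4e-05, 6.02e-07 and 0.0238. *Slc7a5* passed with CHYL-sized particles with the replicate number as a block and with replicates 1 and 2 only, at log2 fold changes of 0.22 and 0.25 and limma adjusted p of 0.0077 and 0.00128. *Slc7a6*, a light chain that carries basic and neutral amino acids, measured 71.6, 74.5 and 76.9 cpm in control, 79.4, 79.7 and 89.4 with VLDL-sized and 69.8, 77.2 and 85.2 with CHYL-sized particles. In *Slc7a6* every VLDL-sized library lay above every control library and the CHYL-sized libraries overlapped with control, replicate 3 highest in each group. *Slc7a6* had log2 fold changes of 0.15 (SE 0.076, limma adjusted p = 0.144) and 0.053 (SE 0.076, adjusted p = 0.662). *Slc7a6* passed with VLDL-sized particles with the replicate number as a block, at a log2 fold change of 0.15 and a limma adjusted p of 0.0164.

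*Slc7a1*, a carrier of arginine and lysine, measured 143, 144 and 209.9 cpm in control, 229, 219 and 298 with VLDL-sized and 195, 178 and 263 with CHYL-sized particles. In *Slc7a1* every VLDL-sized library lay above every control library and the CHYL-sized libraries overlapped with control, replicate 3 highest in each group. *Slc7a1* had log2 fold changes of 0.60 (SE 0.18, limma adjusted p = 0.0247) and 0.36 (SE 0.181, adjusted p = 0.175). *Slc7a1* lost its VLDL-sized call without control replicates 1 or 2 or VLDL-sized replicate 3, at log2 fold changes of 0.50, 0.51 and 0.46 and limma adjusted p of 0.093, 0.0873 and 0.0808. *Slc7a1* passed with CHYL-sized particles with the replicate number as a block, with replicates 1 and 2 only and without control replicate 3, at log2 fold changes of 0.36, 0.38 and 0.54 and limma adjusted p of 4.28e-05, 7.37e-05 and 0.0367. *Slc38a2*, a sodium-coupled carrier of small neutral amino acids, measured 451, 457 and 499 cpm in control, 542, 583 and 632 with VLDL-sized and 490.4, 461 and 598 with CHYL-sized particles. In *Slc38a2* every VLDL-sized library lay above every control library and the CHYL-sized libraries overlapped with control, replicate 3 highest in each group. *Slc38a2* had log2 fold changes of 0.32 (SE 0.093, limma adjusted p = 0.0212) and 0.13 (SE 0.093, adjusted p = 0.342). *Slc38a2* lost its VLDL-sized call with library size as the only scaling and without control replicates 1 or 2 or VLDL-sized replicates 2 or 3, at log2 fold changes of 0.23, 0.29, 0.30, 0.32 and 0.26 and limma adjusted p of 0.0557, 0.0746, 0.0669, 0.0545 and 0.0681. *Slc38a2* passed with CHYL-sized particles with the replicate number as a block, at a log2 fold change of 0.13 and a limma adjusted p of 0.0489. With 1 library left out, the CHYL-sized log2 fold change of *Slc38a2* ran from 0.021 to 0.209. *Slc38a1*, a carrier related to *Slc38a2*, measured 308, 318 and 367 cpm in control, 322, 335 and 378 with VLDL-sized and 319.8, 306 and 370.0 with CHYL-sized particles. In *Slc38a1* the libraries of both particles overlapped with control, replicate 3 highest in each group. *Slc38a1* had log2 fold changes of 0.061 (SE 0.090, limma adjusted p = 0.638) and 0.004 (SE 0.090, adjusted p = 0.98). *Slc1a5*, an exchanger of glutamine, measured 196, 190.0 and 242 cpm in control, 207, 207 and 260.4 with VLDL-sized and 193, 190.1 and 252 with CHYL-sized particles. In *Slc1a5* the libraries of both particles overlapped with control, replicate 3 highest in each group. *Slc1a5* had log2 fold changes of 0.10 (SE 0.132, limma adjusted p = 0.581) and 0.012 (SE 0.132, adjusted p = 0.962). *Slc1a5* passed with VLDL-sized particles with the replicate number as a block, at a log2 fold change of 0.10 and a limma adjusted p of 0.0314. Per kilobase, the control level of the transporters was lowest for *Slc1a4* (1.96 ± 0.707 cpm per kb) and highest for *Slc38a2* (101 ± 5.67 cpm per kb) and *Slc3a2* (97.1 ± 2.83 cpm per kb), which did not differ beyond their SD (n = 3).

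**Figure D2:**
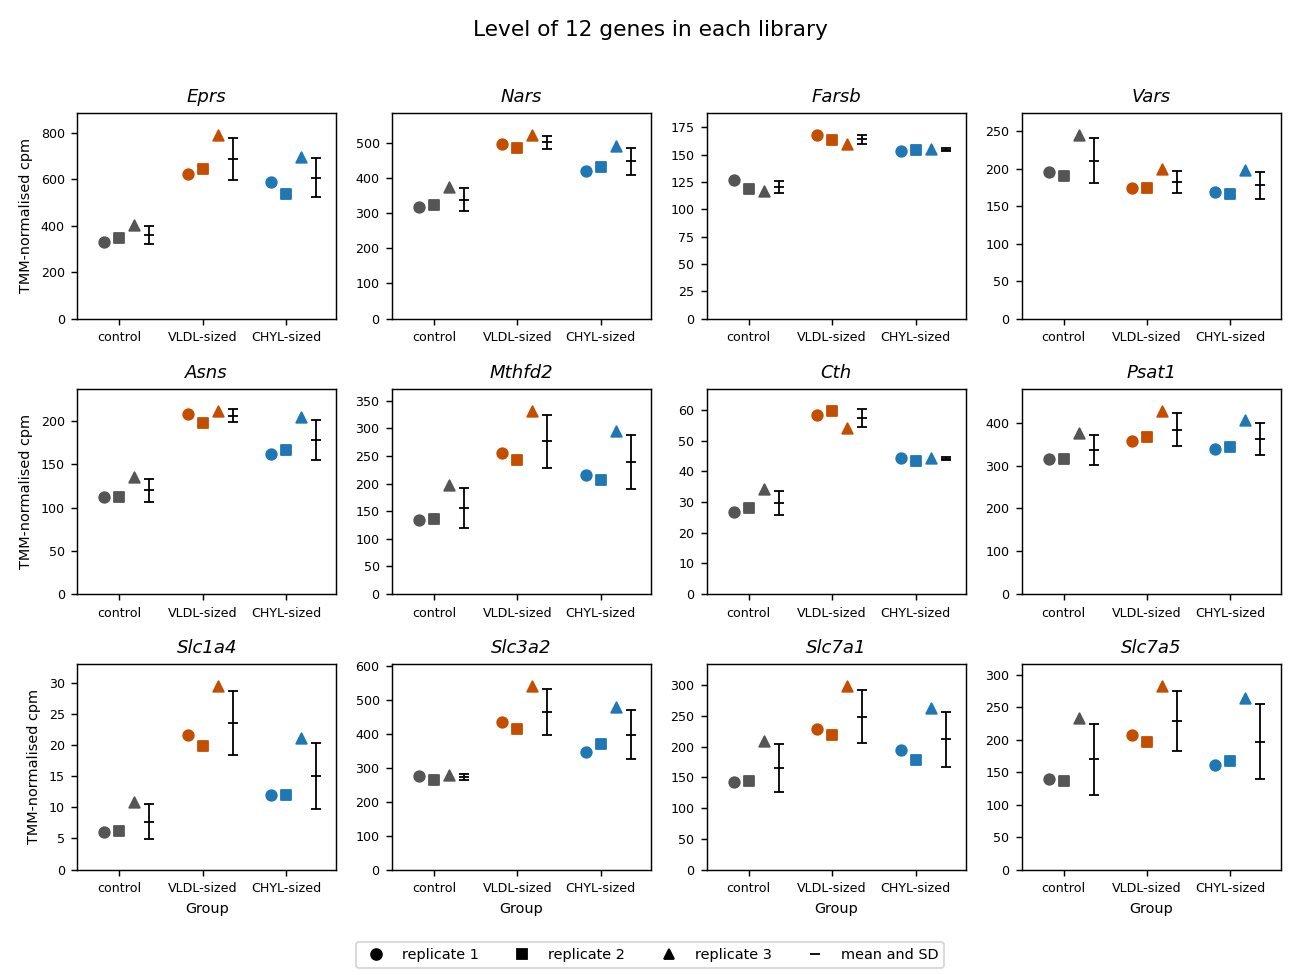
TMM-normalised cpm (vertical axis, from 0) of 12 genes in each of the 9 libraries, by group (horizontal axis) and replicate number (symbol), with the mean and SD of 3 libraries beside them. For *Eprs* the control libraries lie at 329.7, 347 and 404 cpm, below every treated library, and for *Slc7a5* control replicate 3, at 233 cpm, lies above VLDL-sized replicates 1 and 2.

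Of the other amino acid transporters, 15 of 24 were tested, of which 6 were higher and 2 lower with VLDL-sized particles (median log2 fold change 0.10) and 4 higher and 1 lower with CHYL-sized particles (median 0.045), and with the replicate block 6 higher and 4 lower, and 6 higher and 3 lower. The shares of all genes tested were 17.8% higher and 17.9% lower with VLDL-sized, and 12.7% and 13.0% with CHYL-sized particles. Under the block they were 24.1% and 23.8%, and 19.5% and 19.6%. For these carriers the VLDL-sized counts became 5 higher and 1 lower without control replicate 1, 4 higher and 1 lower without control replicate 2 or VLDL-sized replicate 2 and 6 higher and 1 lower without VLDL-sized replicate 3, and the CHYL-sized counts became 3 higher and 2 lower without control replicate 3. Their VLDL-sized median ran from 0.057 (without control replicate 3) to 0.138 (without control replicate 2). Their CHYL-sized median was 0.028 without control replicate 1. *Slc7a11*, the light chain of the cystine and glutamate exchanger, which pairs with *Slc3a2*, measured 2.94, 3.67 and 8.57 cpm in control, 90.4, 93.5 and 146 with VLDL-sized and 69.1, 66.4 and 106 with CHYL-sized particles, with log2 fold changes of 4.56 (SE 0.435, limma adjusted p = 2.35e-05) and 4.12 (SE 0.437, adjusted p = 8.53e-05). *Slc6a9*, a glycine carrier, measured 10.8, 12.7 and 14.2 cpm in control, 58.3, 49.02 and 52.7 with VLDL-sized and 39.1, 38.2 and 49.9 with CHYL-sized particles, with log2 fold changes of 2.09 (SE 0.138, limma adjusted p = 2.03e-06) and 1.75 (SE 0.14, adjusted p = 1.23e-05). All treated libraries of both genes lay above all control libraries. *Slc43a2*, a carrier of large neutral amino acids, measured 157, 161 and 143 cpm in control, 373, 347 and 341 with VLDL-sized and 332, 319.8 and 305 with CHYL-sized particles, with log2 fold changes of 1.20 (SE 0.060, limma adjusted p = 2.96e-07) and 1.05 (SE 0.060, adjusted p = 1.04e-06). *Slc7a2*, a carrier of arginine, measured 34.4, 34.9 and 28.7 cpm in control, 15.7, 18.6 and 15.3 with VLDL-sized and 19.8, 22.01 and 13.95 with CHYL-sized particles, with log2 fold changes of -0.98 (SE 0.151, limma adjusted p = 0.000561) and -0.83 (SE 0.147, adjusted p = 0.00212).

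Between the 2 particles, limma-voom called 0 of the 38 genes and 0% of all 12637 genes tested, while 4 of the 38 and 6.43% of all genes had an unadjusted p under 0.05. DESeq2 called 1 of them, *Cth*, and 0.190% of all genes tested, and edgeR and limma-trend called none. The replicate number as a block gave 5 of the 38 genes higher with VLDL-sized particles, among 147 genes called in all. In all 3 replicate numbers, 29 of the 38 were higher with VLDL-sized than CHYL-sized particles, against 17.8% of all genes tested. Both values take the numbers as pairs and stand only as alternatives. Replicates 1 and 2 correlated less within numbers (0.096 and 0.176) than across them (0.259 and 0.267) between the particles. The median log2 difference of the 38 genes was 0.11 against -0.0012 for all genes. Leaving out replicate 3 of the VLDL-sized group brought it to 0.065, and leaving out that of the CHYL-sized group to 0.174. *Slc1a4* had the largest difference, 0.68 (95% interval 0.15 to 1.21, limma adjusted p = 0.665). For *Cth* it was 0.38 (95% interval 0.21 to 0.56, limma adjusted p = 0.505). For *Eprs* it was 0.18 (95% interval -0.076 to 0.44, limma adjusted p = 0.855). As an alternative only, the replicate block gave a difference of 0.65 for *Slc1a4* (limma adjusted p = 0.0127) and 0.38 for *Cth* (limma adjusted p = 0.039). Without the libraries of replicate 3, 12 of the genes were called higher with VLDL-sized than with CHYL-sized particles (*Mthfd2*, *Slc3a2*, *Cars*, *Slc1a4*, *Slc38a2*, *Nars*, *Cth*, *Asns*, *Gars*, *Aars*, *Slc7a5* and *Slc7a1*), against 1.15% of all 12386 genes tested. *Slc1a4* then had a difference of 0.78 (SE 0.088, limma adjusted p = 0.000505) and *Cth* one of 0.43 (SE 0.056, limma adjusted p = 0.00134). These p-values measure only the spread between 2 close libraries a group, and limma-voom with all libraries called 0 of the 38.

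A list of genes around ATF4 was read beside these genes. It mixes regulators, such as *Atf4*, with genes that are not regulators, such as *Chac1* and *Vldlr*. Of the listed genes, 19 of 21 were tested, of which 13 were higher and 1 lower with VLDL-sized particles (median log2 fold change 0.99) and 11 higher and 1 lower with CHYL-sized particles (median 0.68), and with the replicate block 15 higher and 2 lower, and 14 higher and 2 lower. For all genes tested the shares were 17.8% higher and 17.9% lower with VLDL-sized, and 12.7% and 13.0% with CHYL-sized particles. The block made them 24.1% and 23.8%, and 19.5% and 19.6%. Added over the 21 genes of the list, the level was 1190.1, 1199 and 1568 cpm in the control libraries, 2150.2, 2000.2 and 2330.1 cpm with VLDL-sized and 1692, 1713 and 2166 cpm with CHYL-sized particles. *Atf4* itself was the most abundant in that sum. *Ppp1r15a*, which recruits a phosphatase to eIF2, measured 9.04, 8.38 and 13.2 cpm in control, 36.7, 30.6 and 51.2 with VLDL-sized and 20.2, 20.7 and 35.7 with CHYL-sized particles, with log2 fold changes of 1.95 (SE 0.285, limma adjusted p = 0.000405) and 1.30 (SE 0.297, adjusted p = 0.00881). *Chac1*, which degrades glutathione, measured 4.04, 3.497 and 11.02 cpm in control, 18.7, 16.2 and 25.5 with VLDL-sized and 8.51, 10.98 and 18.2 with CHYL-sized particles, with log2 fold changes of 1.88 (SE 0.389, limma adjusted p = 0.00354) and 1.15 (SE 0.413, adjusted p = 0.0656). *Chac1* passed with CHYL-sized particles with the replicate number as a block, with replicates 1 and 2 only and without control replicate 3 or CHYL-sized replicate 1, at log2 fold changes of 1.04, 1.36, 1.66 and 1.39 and limma adjusted p of 0.00126, 4.89e-05, 0.0147 and 0.0458. All VLDL-sized libraries of both genes lay above all control libraries. *Ddit3*, the transcription factor CHOP, measured 4.25, 4.76 and 7.12 cpm in control, 18.9, 17.3 and 20.6 with VLDL-sized and 8.11, 9.81 and 12.4 with CHYL-sized particles, with log2 fold changes of 1.85 (SE 0.191, limma adjusted p = 4.13e-05) and 0.93 (SE 0.207, adjusted p = 0.0079). *Trib3*, a pseudokinase that binds ATF4, measured 10.5, 10.6 and 19.7 cpm in control, 45.8, 36.8 and 50.5 with VLDL-sized and 24.1, 25.97 and 41.1 with CHYL-sized particles, with log2 fold changes of 1.76 (SE 0.258, limma adjusted p = 0.000411) and 1.18 (SE 0.268, adjusted p = 0.00836).

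Of the initiation and elongation factors of translation, 24 of 24 were tested, of which 9 were higher and 0 lower with VLDL-sized particles (median log2 fold change 0.10) and 5 higher and 0 lower with CHYL-sized particles (median 0.064), and with the replicate block 11 higher and 1 lower, and 9 higher and 0 lower. Beside these stand 17.8% higher and 17.9% lower of all genes tested with VLDL-sized, and 12.7% and 13.0% with CHYL-sized particles. Blocked, the shares were 24.1% and 23.8%, and 19.5% and 19.6%. Among the factors the VLDL-sized counts became 5 higher without control replicate 1, and the CHYL-sized counts became 3 higher without control replicates 1 or 2 or CHYL-sized replicates 1 or 2. Their VLDL-sized median was 0.037 without VLDL-sized replicate 3. Their CHYL-sized median ran from 0.028 (without control replicate 1) to 0.110 (without control replicate 3). *Eif2s2*, the beta subunit of eIF2, measured 282, 279 and 350.0 cpm in control, 417, 405 and 439.6 with VLDL-sized and 387, 380.3 and 445 with CHYL-sized particles, with log2 fold changes of 0.48 (SE 0.090, limma adjusted p = 0.00206) and 0.42 (SE 0.090, adjusted p = 0.00665). *Eif2b3*, a subunit of the exchange factor of eIF2, measured 22.5, 22.7 and 27.1 cpm in control, 31.3, 29.96 and 37.7 with VLDL-sized and 29.7, 29.7 and 32.8 with CHYL-sized particles, with log2 fold changes of 0.45 (SE 0.102, limma adjusted p = 0.00588) and 0.35 (SE 0.103, adjusted p = 0.0276). *Eif2b3* lost its CHYL-sized call with library size as the only scaling and without control replicates 1 or 2 or CHYL-sized replicates 1, 2 or 3, at log2 fold changes of 0.28, 0.31, 0.32, 0.37, 0.38 and 0.31 and limma adjusted p of 0.0519, 0.104, 0.0967, 0.0554, 0.0522 and 0.0844. All treated libraries of *Eif2s2* and *Eif2b3* lay above all control libraries. *Eif5*, which activates the GTPase step of eIF2, measured 259, 258 and 237 cpm in control, 355, 337 and 329.7 with VLDL-sized and 308, 308 and 304 with CHYL-sized particles, with log2 fold changes of 0.44 (SE 0.050, limma adjusted p = 8.3e-05) and 0.29 (SE 0.050, adjusted p = 0.0019). *Eif1a*, a factor of start codon scanning, measured 124, 134 and 133 cpm in control, 162, 175 and 180.2 with VLDL-sized and 169, 159 and 162 with CHYL-sized particles, with log2 fold changes of 0.41 (SE 0.055, limma adjusted p = 0.000265) and 0.33 (SE 0.055, adjusted p = 0.00169).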

How the data were processed

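RNA of 9 libraries was sequenced on a BGISEQ-500. The authors deposited estimated counts per gene, made with Salmon 0.14.1 against GENCODE transcripts of GRCm38 and summed to genes. Their methods name scaling by transcript length and library size, which the deposited values do not show (58.3% of values above 10 were whole, tolerance 1e-6). Strand use was not stated, so overlapping genes cannot be told apart. 54346 of 54432 identifiers had a symbol.

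The filter on low values kept the 12637 genes above 10 counts in 3 or more libraries, which entered 1 limma-voom model of all libraries with TMM factors of 0.9639 to 1.052 (R 4.3.3, limma 3.58.1, edgeR 4.0.16) and Benjamini-Hochberg adjustment. Alternatives were edgeR quasi-likelihood, DESeq2 1.42.0 (counts rounded for both), limma-trend, other scalings and filters, only the groups compared, the replicate block, replicates 1 and 2 only and each library left out. The scripts were tested on simulated data. Same-numbered libraries correlated at 0.239, 0.214 and 0.411 (VLDL-sized and control) and 0.183, 0.13 and 0.456 (CHYL-sized and control), so the numbers from the labels were taken as pairs; between replicates 1 and 2 the values were 0.034 and 0.176, and 0.192 and 0.225. Because libraries are pools, p-values measure only the spread between pools, and limits at 0 cover counting error only.

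The members and lists were chosen with earlier results of these data known. Named are all members, *Mars1*, up to 4 genes per further list with the largest called log2 fold change, and macrophage markers; some of these, and 1 promoter stretch, are not reported here. Coordinates are from GENCODE M21 and promoters from RefSeq (GRCm38.p6).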

Additional observations from a re-analysis of the deposited data

How the results depend on the processing

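Of the 23 genes called with VLDL-sized particles, 15 were called in each of the 17 alternatives, as were 6 of the 12 called with CHYL-sized particles, and the sign turned for none of the called genes. With 1 library left out, the median of the genes described was 0.252 to 0.373 with VLDL-sized particles, 0.112 to 0.302 with CHYL-sized particles and 0.065 to 0.174 between the particles, and in the other alternatives 0.214 to 0.308, 0.121 to 0.201 and 0.093 to 0.120. The count with 1 library left out was 15 to 26 among 3482 to 4301 genes in all with VLDL-sized particles, 6 to 18 among 2320 to 3101 with CHYL-sized particles and 0 between the particles, where 0 to 1 genes were called in all. The replicate block gave 25 of the genes described and 4949 genes in all with CHYL-sized particles, and replicates 1 and 2 only gave 22. Between the particles same-numbered libraries correlated at 0.096, 0.176 and 0.495. Because of the low value of replicate 1, the numbers were taken as pairs there only for values given as alternatives. Replicates 1 and 2 correlated more across numbers (0.259 and 0.267). This also held between CHYL-sized and control libraries (0.192 and 0.225), where the numbers were taken as pairs. The block gave 5 of the genes described (*Mthfd2*, *Cars*, *Slc1a4*, *Cth* and *Slc7a1*, limma adjusted p of 0.0352, 0.0474, 0.0127, 0.0387 and 0.0328) among 147, replicates 1 and 2 only 12 among 257 and DESeq2 1 among 24. In the comparisons against control, the block changed no call of a gene given with a fold change other than those given with a blocked value. Log2 fold changes that turned sign belonged to genes that were not called: library size only gave -0.081 for *Farsa*, -0.087 for *Psph*, -0.015 for *Pycr1* and -0.032 for *Slc38a1* with VLDL-sized, and -0.026 for *Slc7a6*, -0.068 for *Slc1a5* and -0.076 for *Slc38a1* with CHYL-sized particles. Upper-quartile scaling gave -0.00051 for *Psph* with VLDL-sized and a fit of the compared groups alone -0.0002 for *Slc38a1* with CHYL-sized particles. Replicates 1 and 2 only gave -0.025 for *Farsa*, -0.016 for *Psph* and 0.014 for *Shmt2* with VLDL-sized, and 0.00021 for *Qars* and -0.011 for *Slc1a5* with CHYL-sized particles. Leaving out 1 library gave log2 fold changes from -0.012 to 0.045 for *Farsa*, -0.033 to 0.211 for *Pycr1*, -0.060 to 0.057 for *Psph*, -0.075 to 0.075 for *Shmt2*, -0.090 to 0.011 for *Got1*, -0.0054 to 0.213 for *Slc1a5* and -0.0059 to 0.137 for *Slc38a1* with VLDL-sized, and from -0.120 to 0.121 for *Slc1a5*, -0.076 to 0.080 for *Slc38a1*, -0.100 to 0.050 for *Shmt2*, -0.032 to 0.0093 for *Qars*, -0.061 to 0.010 for *Farsa*, -0.0045 to 0.476 for *Slc7a5* and -0.018 to 0.121 for *Slc7a6* with CHYL-sized particles. The cause was not tested. Alternatives for the further lists and for counts by role were added after seeing the data. Depth limits what can be said of *Phgdh*, which had no count.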
